A study of Mus musculus with 6 samples.

Results

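The serpin protease inhibitors of the mouse uterus were described as 1 gene family, defined by gene symbol: Serpin, then 1 clade letter from a to i, then a number. The rule takes 69 of the 49997 genes in the RefSeq gene table, of which 68 are described. Of these 68, 59 had a probe on the array and 28 gave enough signal to be tested, out of 14846 genes tested in all. Whole uterine tissue had been taken at GD 3.5 of natural pregnancy, gestation day 3.5, from females mated at 8 to 10 weeks of age, after the embryos had been flushed from the horns. The control group was 3 biological samples of Sox17f/f littermates, which carry the floxed allele and no Cre recombinase. The other group was 3 biological samples of Sox17ed/ed mice (LtfiCre/+ Sox17 f/f), in which iCre made from the lactoferrin gene Ltf, active in uterine epithelium from puberty, deletes Sox17, a transcription factor gene. Both groups share the floxed alleles, and no group carried LtfiCre/+ alone, so an effect of the iCre allele itself cannot be told apart from the loss of Sox17.

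Serpins are proteins that trap proteases. The target protease cuts an exposed loop of the serpin, stays bound to it through a covalent bond and is carried to the far side of the molecule as the serpin changes shape, so both proteins are used up. Clade A members are mostly secreted, with alpha-1-antitrypsin (Serpina1) as the best known. Clade B members lack a classical signal peptide and work mostly inside cells, against granzymes and leukocyte proteases among others. The smaller clades include inhibitors of thrombin, plasminogen activators and complement. A few members, such as the collagen chaperone Serpinh1, inhibit no protease. Around implantation the mouse uterus secretes proteases into its lumen, and serpins are among the secreted uterine proteins described in many mammals.

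Of the 28 serpin genes tested, 11 were lower and 2 were higher in Sox17ed/ed than in Sox17f/f uteri, at an unadjusted limma p under 0.01 and a fold change of at least 1.4. The lower genes were Serpina1a, Serpina1c, Serpina1d, Serpina1e, Serpina3h, Serpina3i, Serpina9, Serpinb5, Serpinb9, Serpine2 and Serping1, and the higher genes were Serpinb10 and Serpinb11. The 13 genes were 46.4% of the serpins tested, beside 12.5% of all genes tested. Those lower were 39.3%, beside 6.47% of all genes, and those higher were 7.14%, beside 6.04% of all genes. The share of lower genes stood apart from that of all genes, and the share of higher genes was near it. The lower share counts the Serpina1 and Serpina3 copies as separate genes, although their probes may read related copies and their values are not independent. The same 13 genes had a Benjamini-Hochberg adjusted limma p under 0.05, the highest being 0.0363, beside 18.9% of all genes under that threshold. On 17 of the 28 (60.7%) the 3 arrays of one genotype did not overlap the 3 of the other, beside 40.3% of all genes. The median log2 fold change of the 28 genes, Sox17ed/ed minus Sox17f/f, was -0.41, and that of all genes was -0.0016. Of the 13 genes, Serpinb10 entered the test through the Sox17ed/ed arrays only. Its call and adjusted p rest on control values below background, so its place among the higher genes is set partly by the filter. Setting Serpinb10 at its bound left the median of the 28 genes at -0.41. That could not have differed, since its fold change (3.70) and its bound (1.95, log2) both lie above the median. These shares describe the family, which was not tested as a set.

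**Figure D1:**
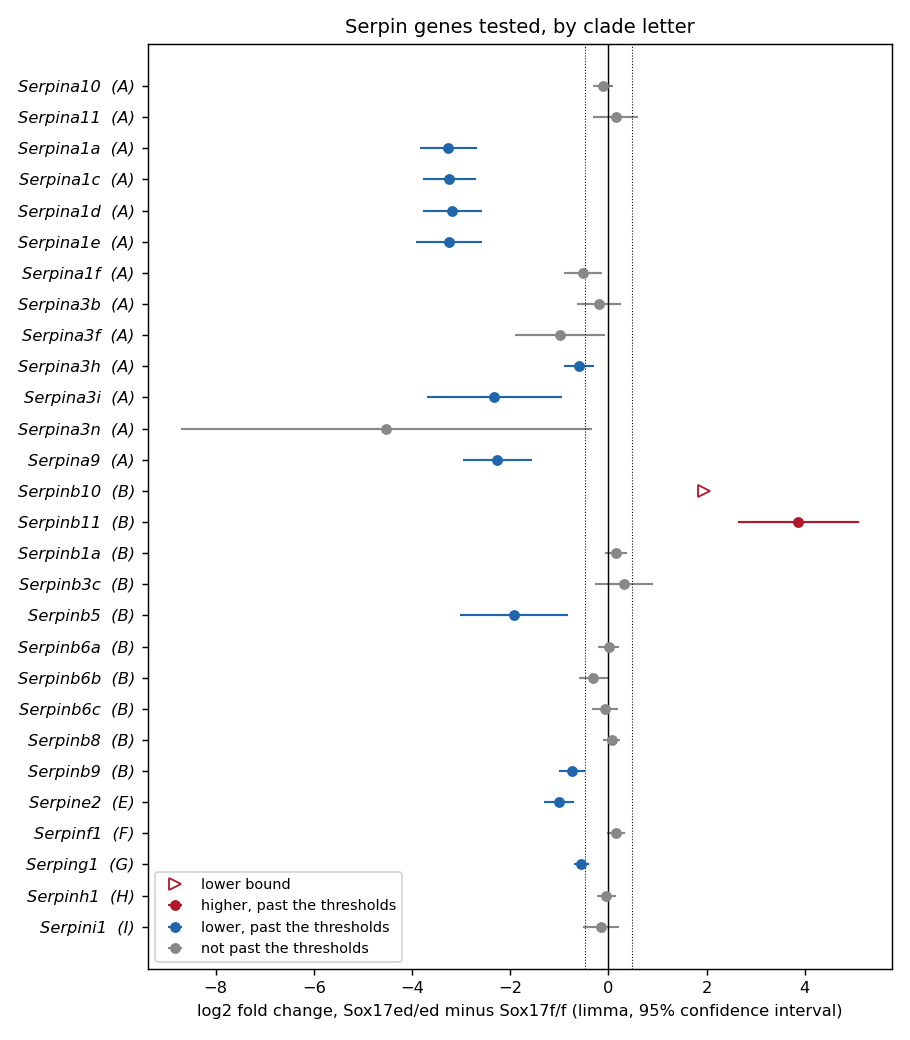
Log2 fold change of the 28 serpin genes tested, Sox17ed/ed minus Sox17f/f, with 95% confidence intervals from limma; the clade letter stands beside each name and dotted lines mark a fold change of 1.4. Clade A and the small clades E and G hold 9 of the 11 lower genes, both higher genes belong to clade B, and the open triangle gives Serpinb10 at its lower bound.

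Sox17 itself, the targeted gene, had normalized log2 signals of 12.21, 12.07 and 12.22 on the Sox17f/f arrays and of 9.75, 9.59 and 9.81 on the Sox17ed/ed arrays, a log2 fold change of -2.45 ± 0.09 (SE, n = 3 and 3, limma adjusted p = 2.65e-05). The remaining signal was above background on all 3 arrays. All 6 arrays lay on 1 slide, with the genotypes on separate lines of it, so the line of the slide and the genotype cannot be told apart. Of the 59305 spots measured per array, 60.7% to 65.7% were above background on the Sox17f/f arrays and 56.8% to 59.4% on the Sox17ed/ed arrays. In RNA of a whole organ, fewer cells of a type and less RNA per cell cannot be told apart, which holds for each gene below.

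Marker lists of cell types were read from the same fit. Of 9 uterine gland markers, 8 were lower in Sox17ed/ed and 1, Aldh1a1, was higher. The paper had already listed Foxa2, Lif, Prss28 and Prss29 among the gland genes dysregulated on these same arrays. The gland count is therefore not an independent measure of gland content. The summed log2 signal of the 9 gland markers was 15.10 to 15.76 on the Sox17f/f arrays and 13.53 to 13.83 on the Sox17ed/ed arrays. Foxa2, a transcription factor of the glandular epithelium, fell by 4.51 on the log2 scale. Of 15 general epithelial markers, 7 were higher and 2 lower, and their summed log2 signal overlapped (15.79 to 15.87 and 15.85 to 16.15). None of 11 stromal markers passed the thresholds in either direction, with summed log2 signals of 18.94 to 18.99 and 18.75 to 18.93. Of the gland markers, 4 (Prss28, Prss29, Spink1 and Wfdc3) also stand in the protease and inhibitor lists below. What these shifts contribute to the serpin differences was not tested.

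The sequences upstream of the Serpina1 copies, printed first because these genes moved by nearly the same amount, show how closely the copies are related. Each is the 250 bases before the RefSeq transcription start on the GRCm38.p6 assembly, read 5′ to 3′ on the gene's own strand, and the capitals mark a 55-base stretch that all 5 copies share and that is in 0 of the other RefSeq promoters searched.
Serpina1a (chr12:103863620-103863869, minus strand): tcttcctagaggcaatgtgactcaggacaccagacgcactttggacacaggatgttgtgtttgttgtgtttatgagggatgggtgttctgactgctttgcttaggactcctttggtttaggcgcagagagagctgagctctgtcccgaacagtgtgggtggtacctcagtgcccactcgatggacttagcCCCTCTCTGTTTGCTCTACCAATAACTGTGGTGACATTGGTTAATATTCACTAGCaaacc
Serpina1b (chr12:103738190-103738439, minus strand): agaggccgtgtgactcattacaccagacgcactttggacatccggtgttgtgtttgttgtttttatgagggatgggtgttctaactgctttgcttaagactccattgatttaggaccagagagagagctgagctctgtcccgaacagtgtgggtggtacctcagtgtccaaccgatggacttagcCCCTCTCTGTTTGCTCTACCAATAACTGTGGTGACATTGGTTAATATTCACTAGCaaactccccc
Serpina1c (chr12:103904951-103905200, minus strand): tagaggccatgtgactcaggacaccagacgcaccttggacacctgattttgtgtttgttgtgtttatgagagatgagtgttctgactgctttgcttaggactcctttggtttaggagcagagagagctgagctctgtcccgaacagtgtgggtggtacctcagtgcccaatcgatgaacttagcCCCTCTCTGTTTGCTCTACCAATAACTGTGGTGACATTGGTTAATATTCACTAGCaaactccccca
Serpina1d (chr12:103773634-103773883, minus strand): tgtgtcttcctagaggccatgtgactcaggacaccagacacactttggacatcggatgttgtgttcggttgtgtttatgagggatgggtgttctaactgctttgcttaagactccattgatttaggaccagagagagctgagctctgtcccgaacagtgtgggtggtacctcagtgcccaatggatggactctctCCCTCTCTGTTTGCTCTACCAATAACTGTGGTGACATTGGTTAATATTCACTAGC
Serpina1e (chr12:103956898-103957147, minus strand): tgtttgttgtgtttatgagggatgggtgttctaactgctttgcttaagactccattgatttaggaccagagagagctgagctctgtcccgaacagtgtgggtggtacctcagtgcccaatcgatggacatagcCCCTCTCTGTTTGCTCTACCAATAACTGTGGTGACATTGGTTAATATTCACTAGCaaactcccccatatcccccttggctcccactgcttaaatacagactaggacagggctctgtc
Between pairs of these copies, 92.1% to 98.0% of the aligned bases were identical. Array probes can hybridise to the transcripts of near-identical copies, so the values of single Serpina1 copies are uncertain as values of that copy, and Serpina1b, for which no probe was matched, may be measured by probes of the others.

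The alpha-1-antitrypsin genes showed the largest differences among the serpins that passed the thresholds downward. These genes encode the main inhibitor of neutrophil elastase in plasma, and rodents carry several copies of a gene that is single in humans. Serpina1a had normalized log2 signals of 11.62, 12.11 and 12.55 in Sox17f/f and of 8.98, 8.89 and 8.63 in Sox17ed/ed uteri. Its signal was thus 9.60-fold lower in Sox17ed/ed, a log2 fold change of -3.26 ± 0.24 (SE, n = 3 and 3, limma adjusted p = 0.00037). The lowest control array stood well above the highest Sox17ed/ed array.

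Serpina1c read 11.60, 12.10 and 12.49 in Sox17f/f and 8.96, 8.79 and 8.72 in Sox17ed/ed uteri, a log2 fold change of -3.24 ± 0.22. Serpina1d read 9.30, 9.78 and 10.16 against 6.87, 6.54 and 6.29, a log2 fold change of -3.18 ± 0.25. Serpina1e read 11.74, 12.30 and 12.80 against 9.27, 9.04 and 8.78, a log2 fold change of -3.25 ± 0.28. The folds of the 4 copies ran from 9.08 to 9.60. With normexp correction, another way of subtracting background, Serpina1d read -2.56 and the other 3 copies -2.97 to -3.07. The order of the 3 control arrays was the same for all 4 copies, as was that of the 3 Sox17ed/ed arrays. A second probe of Serpina1a, Serpina1d and Serpina1e gave log2 fold changes of -2.995, -3.46 and -2.989. That of Serpina1d was above background on 1 of 3 Sox17ed/ed arrays, so its value rests partly on signals below background. Serpina1f, a more distant copy known from the epididymis, read -0.52 ± 0.16 and did not pass the thresholds (limma adjusted p = 0.073), although its 3 Sox17ed/ed arrays lay below its 3 controls. Of those 3 Sox17ed/ed arrays, 1 was above background. Serpina1f passed with the 75th percentile in place of quantile normalization (-0.59), and without Sox17f/f replicate 3 (-0.67).

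Hepatocytes are the main source of alpha-1-antitrypsin in the body. Of 12 hepatocyte markers, 5 were tested and 2 were lower in Sox17ed/ed (40%, beside 6.47% of all genes). Ttr, the thyroid hormone carrier transthyretin, was at least 39.3-fold lower, with no Sox17ed/ed array above background. Hpx, the haem carrier hemopexin, fell by 2.05 on the log2 scale. The other tested markers, Apoa2, Apob and Tat, did not pass, and albumin (Alb), Apoa1, Ahsg, Cps1 and the fibrinogen genes gave too little signal to be tested. The summed log2 signal of the 5 was 10.48 to 11.05 in Sox17f/f and 9.57 to 9.97 in Sox17ed/ed uteri, and its part in the Serpina1 result was not tested.

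**Figure D2:**
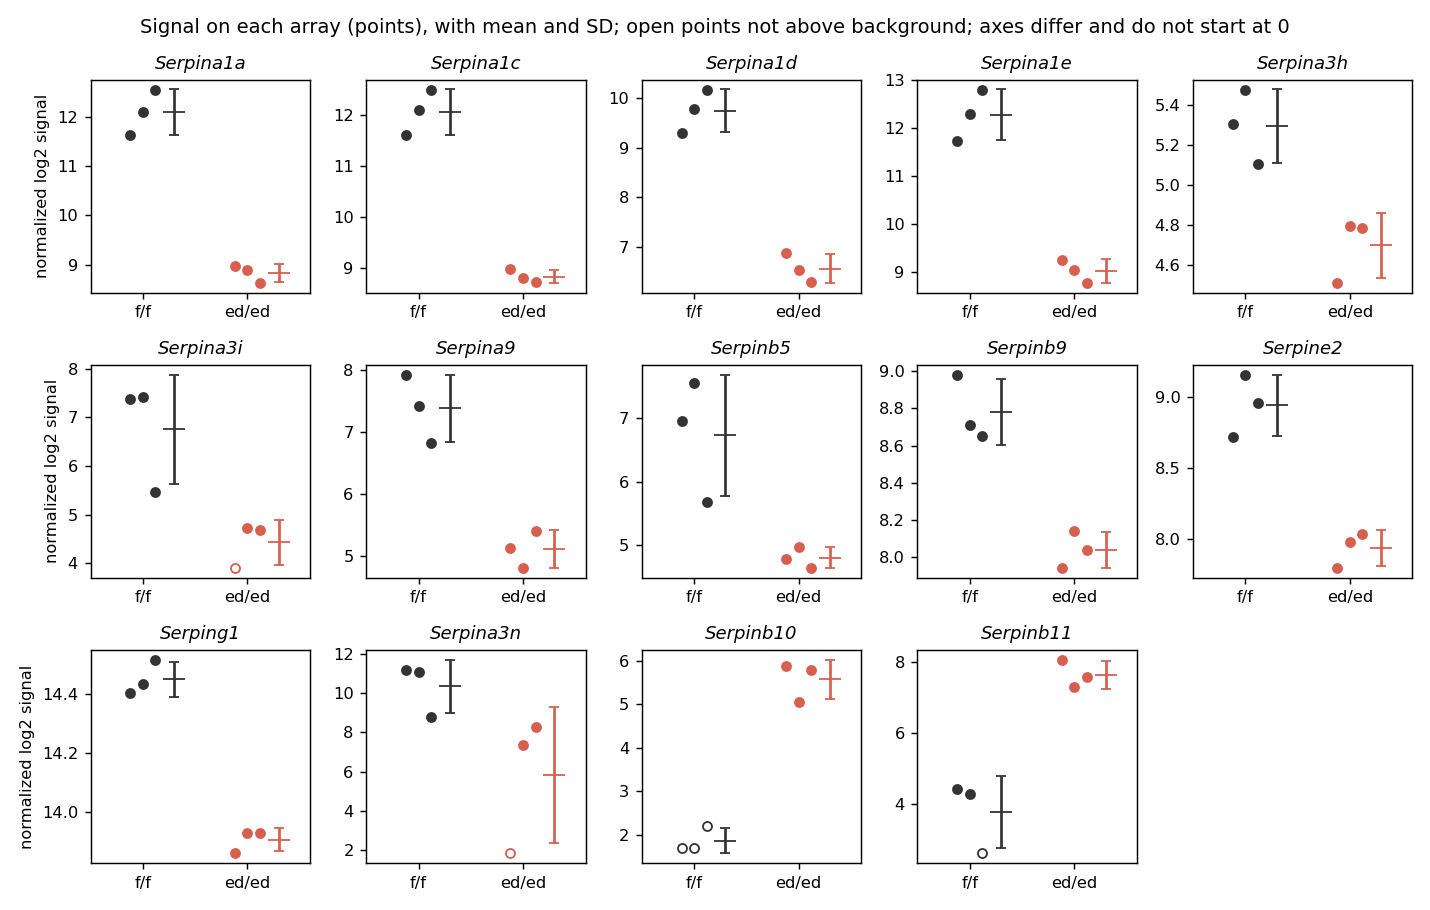
Normalized log2 signal of the 11 lower serpins, of Serpina3n, which did not pass the thresholds, and of the 2 higher serpins on each array, with the mean and SD (n = 3 per genotype) drawn beside the points; open points are arrays on which the probe was not above background. Serpina3i, Serpina3n and Serpinb5 have 1 low control array, the Sox17f/f replicate 3.

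The Serpina3 genes are the mouse counterparts of alpha-1-antichymotrypsin, an inhibitor of cathepsin G and chymase that rises in acute inflammation, and they too are many related copies. Their upstream 250 bases (GRCm38.p6) are shown for the 3 members with the lowest Sox17ed/ed signal relative to control that had a promoter entry. Capitals mark a shared match to ACANNNTGT, which holds the half-site spacing bound by progesterone and other steroid receptors of that class.
Serpina3n (chr12:104406458-104406707, plus strand): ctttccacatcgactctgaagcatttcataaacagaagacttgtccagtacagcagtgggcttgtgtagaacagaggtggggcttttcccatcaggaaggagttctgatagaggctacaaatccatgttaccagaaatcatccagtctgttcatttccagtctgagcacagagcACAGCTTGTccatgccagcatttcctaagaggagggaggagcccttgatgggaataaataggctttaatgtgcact
Serpina3i (chr12:104262872-104263121, plus strand): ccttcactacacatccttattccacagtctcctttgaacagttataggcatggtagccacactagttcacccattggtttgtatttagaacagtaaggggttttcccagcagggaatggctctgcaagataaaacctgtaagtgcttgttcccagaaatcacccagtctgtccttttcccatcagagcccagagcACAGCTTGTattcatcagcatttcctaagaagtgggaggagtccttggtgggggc
Serpina3f (chr12:104214294-104214543, plus strand): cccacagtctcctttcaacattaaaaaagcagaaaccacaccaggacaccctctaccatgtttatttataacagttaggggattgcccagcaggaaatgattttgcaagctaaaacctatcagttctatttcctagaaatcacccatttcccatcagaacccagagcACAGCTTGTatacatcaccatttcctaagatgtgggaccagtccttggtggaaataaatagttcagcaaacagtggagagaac
Serpina3n and Serpina3i shared 81.2% of their aligned upstream bases, Serpina3n and Serpina3f 75%, and Serpina3i and Serpina3f 85.7%. As with Serpina1, probes may read more than 1 copy.

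Serpina3i, a chromosome 12 copy, read 7.39, 7.42 and 5.46 in Sox17f/f and 3.90, 4.72 and 4.67 in Sox17ed/ed uteri. Its log2 fold change was -2.32 ± 0.57 (SE, limma adjusted p = 0.036), and a second probe, above background on all 3 control arrays and on 0 of 3 Sox17ed/ed arrays, was at least 1.80-fold lower. The call rests on a wide spread. It was lost without any 1 of Sox17f/f replicate 1 or 2 or Sox17ed/ed replicate 1, 2 or 3, with log2 fold changes of -2.01, -1.99, -2.06, -2.47 and -2.45, and it read -2.97 without the low Sox17f/f replicate 3. With normexp background correction, which adds an offset of 50 and draws dim values together, it read -1.04.

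Serpina3h, annotated as a transcribed pseudogene, read 5.30, 5.47 and 5.10 in Sox17f/f and 4.51, 4.80 and 4.78 in Sox17ed/ed uteri, a log2 fold change of -0.60 ± 0.13 (limma adjusted p = 0.023). All its values were dim, and the call was lost without Sox17f/f replicate 1, although the log2 fold change stayed at -0.59, and with normexp correction (-0.24).

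Serpina3n, the copy best known for rising in inflamed tissue and an inhibitor of granzyme B in the mouse, had the widest spread of the family. It read 11.18, 11.07 and 8.78 in Sox17f/f uteri. The Sox17ed/ed arrays read 1.85, 7.34 and 8.27, the first not above background and not marked as an outlier spot by the scanner software. All 3 lay below the controls, by a narrow margin between the lowest control and the highest Sox17ed/ed array. The log2 fold change of -4.52 ± 1.72 did not pass the thresholds (limma adjusted p = 0.123). Without Sox17ed/ed replicate 1 it was -2.54, and with normexp correction -3.01, which passed. Serpina3f read 5.58, 5.68 and 5.52 against 3.73, 5.29 and 4.81, and its log2 fold change of -0.98 ± 0.38 did not pass (limma adjusted p = 0.124) unless Sox17ed/ed replicate 2 was left out (-1.32). Serpina3b, the remaining copy tested, read -0.19 ± 0.19.

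Serpina9, known as centerin and expressed in germinal centre B cells, read 7.91, 7.41 and 6.83 in Sox17f/f and 5.13, 4.81 and 5.41 in Sox17ed/ed uteri. Its signal was 4.80-fold lower, a log2 fold change of -2.26 ± 0.29 (limma adjusted p = 0.0037), and with normexp correction it read -1.30. Its neighbour Serpina11 had the highest log2 fold change of clade A, 0.15 ± 0.19, and did not pass the thresholds. Serpina10, the protein Z-dependent inhibitor of activated factor X, read -0.11 ± 0.08 from 5 arrays, since its spot on Sox17ed/ed replicate 1 was marked as an outlier and left out.

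Of the 29 clade A members, 13 were thus tested, 7 were lower and 0 were higher, beside 6.47% of all genes lower and 6.04% higher. Serpina10, Serpina11, Serpina1f, Serpina3b, Serpina3f and Serpina3n did not pass. The median log2 fold change over the 13 was -2.26. That median counts Serpina1a, Serpina1c, Serpina1d and Serpina1e as separate genes, although their probes may read each other's transcripts and their values are not independent.

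Clade B held 29 members, of which 10 were tested, 2 rose, 2 fell and 6 did not pass, with a median log2 fold change of 0.04. Among all genes tested, 6.04% were higher and 6.47% lower. Serpinb11, an intracellular member described in epithelia, had the largest rise measured on both sides. It read 4.43, 4.30 and 2.61 in Sox17f/f uteri, above background on 2 of the 3 arrays, and 8.07, 7.29 and 7.59 in Sox17ed/ed uteri. The log2 fold change was 3.87 ± 0.51 (SE, n = 3 and 3, limma adjusted p = 0.0039), and it read 1.75 with normexp correction. Without Sox17f/f replicate 3, the array below background, it was 3.29.

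Serpinb10, known as bomapin and described in blood-forming cells, was not above background on any Sox17f/f array, with signals of 1.70, 1.70 and 2.21. On the Sox17ed/ed arrays it read 5.88, 5.06 and 5.78, above background on all 3. Its signal was therefore at least 3.87-fold higher in Sox17ed/ed uteri. This bound sets the Sox17ed/ed mean against the mean, over the control arrays, of each array's lowest signal above background. Serpinb10 alone among the genes tested in the family entered the test through arrays of 1 genotype only. Its p-value rests on control values below background and is not given here. With normexp correction its log2 fold change was 0.80. Neither Serpinb10 nor Serpinb11 was above background on all 6 arrays, so requiring that left 0 higher serpins.

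The 250 bases upstream of Serpinb10 are given because it was the higher member with a match to ACANNNTGT, in capitals. The letters of this match differ from those of the Serpina3 copies, and 5.84% of all promoters searched hold the pattern. In clade B, Serpinb8, which did not pass, and Serpinb9d and Serpinb12, above background on no array, also hold it, and the higher Serpinb11 does not.
Serpinb10 (chr1:107528753-107529002, plus strand): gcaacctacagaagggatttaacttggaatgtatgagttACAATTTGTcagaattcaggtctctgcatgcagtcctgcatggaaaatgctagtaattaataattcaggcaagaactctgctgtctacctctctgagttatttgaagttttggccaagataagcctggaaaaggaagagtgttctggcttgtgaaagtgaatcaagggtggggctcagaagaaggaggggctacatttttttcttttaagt

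Between Serpinb11 and Serpinb10 on chromosome 1 lie Serpinb7 and Serpinb2. Serpinb7, known as megsin and described in kidney mesangial cells and skin, was not tested. Its signals were 1.78, 1.80 and 1.75 in Sox17f/f and 4.96, 3.32 and 4.48 in Sox17ed/ed uteri, above background on 0 of 3 and 2 of 3 arrays, which gives at least 1.55-fold higher. Serpinb2, the plasminogen activator inhibitor of macrophages and skin, was above background on no array. Serpinb8, an inhibitor of furin on the other side of Serpinb10, read 0.07 ± 0.07. With no filter on dim probes Serpinb7 also passed the thresholds, on control values below background, which made 3 higher serpins, all of this stretch. The lower Serpinb5 lay at the opposite end of the same gene row.

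Several clade B genes of this stretch are known from stratified squamous epithelium. Of 15 markers of that tissue, 8 were tested and 2 were higher in Sox17ed/ed (25%, beside 6.04% of all genes). Krt15 was at least 62.8-fold and Krt5 at least 5.25-fold higher, both keratins of basal epithelial cells and neither above background in any control. Krt14, Krt10, Krt13, Trp63, Lor and Sbsn did not pass. Krt1, Krt4, Krt6a, Ivl, Krtdap, Dsg3 and Dsc3 gave too little signal to be tested. On its brightest probe Trp63 had a log2 fold change of -0.12 ± 0.10, with Sox17f/f signals of 11.24 to 11.51. The paper reports higher Trp63 mRNA in Sox17ed/ed than in Sox17f/f uteri by quantitative PCR. Why the array and the PCR differ was not tested. The summed log2 signal of the 8 was 12.15 to 12.34 in Sox17f/f and 12.42 to 12.56 in Sox17ed/ed uteri. What these genes contribute to the rise of Serpinb10 and Serpinb11 was not tested.

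Serpinb5, known as maspin and expressed in many glandular epithelia, fell. It read 6.96, 7.56 and 5.68 in Sox17f/f and 4.79, 4.97 and 4.64 in Sox17ed/ed uteri, a log2 fold change of -1.93 ± 0.45 (limma adjusted p = 0.033). The Sox17f/f replicate 3 was the lowest control, as for Serpina3i and Serpina3n. The call was lost without Sox17f/f replicate 1 (-1.82) or without Sox17ed/ed replicate 1, 2 or 3 (-1.92, -2.02 and -1.85), and normexp correction gave -0.86.

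Serpinb9, the inhibitor that protects cells from granzyme B, read 8.98, 8.71 and 8.65 in Sox17f/f and 7.94, 8.14 and 8.04 in Sox17ed/ed uteri. Its log2 fold change was -0.74 ± 0.11 (SE, n = 3 and 3, limma adjusted p = 0.0061), 1.67-fold lower, and every control array lay above every Sox17ed/ed array. It is 1 of several related Serpinb9 copies on chromosome 13. Of the others, Serpinb9d, Serpinb9f and Serpinb9g were above background on no array, and Serpinb9b, Serpinb9c and Serpinb9e on 1 array each.

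Of the 6 tested clade B members that did not pass, 3 had log2 fold changes within 0.1 of 0. Serpinb6a, an intracellular inhibitor of thrombin-like proteases and cathepsin G, read 0.00 ± 0.08 on the log2 fold change scale, with a 95% confidence interval of -0.20 to 0.21, and its sign turned with the processing. Serpinb6c read -0.07 ± 0.11, Serpinb1a, an inhibitor of neutrophil elastase, 0.16 ± 0.09 and Serpinb8 0.07 ± 0.07. Serpinb6b had the lowest log2 fold change among the 6 that did not pass, -0.30 ± 0.12, and Serpinb3c, a dim member of the squamous cell carcinoma antigen group, the highest, 0.32 ± 0.24.

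**Figure D3:**
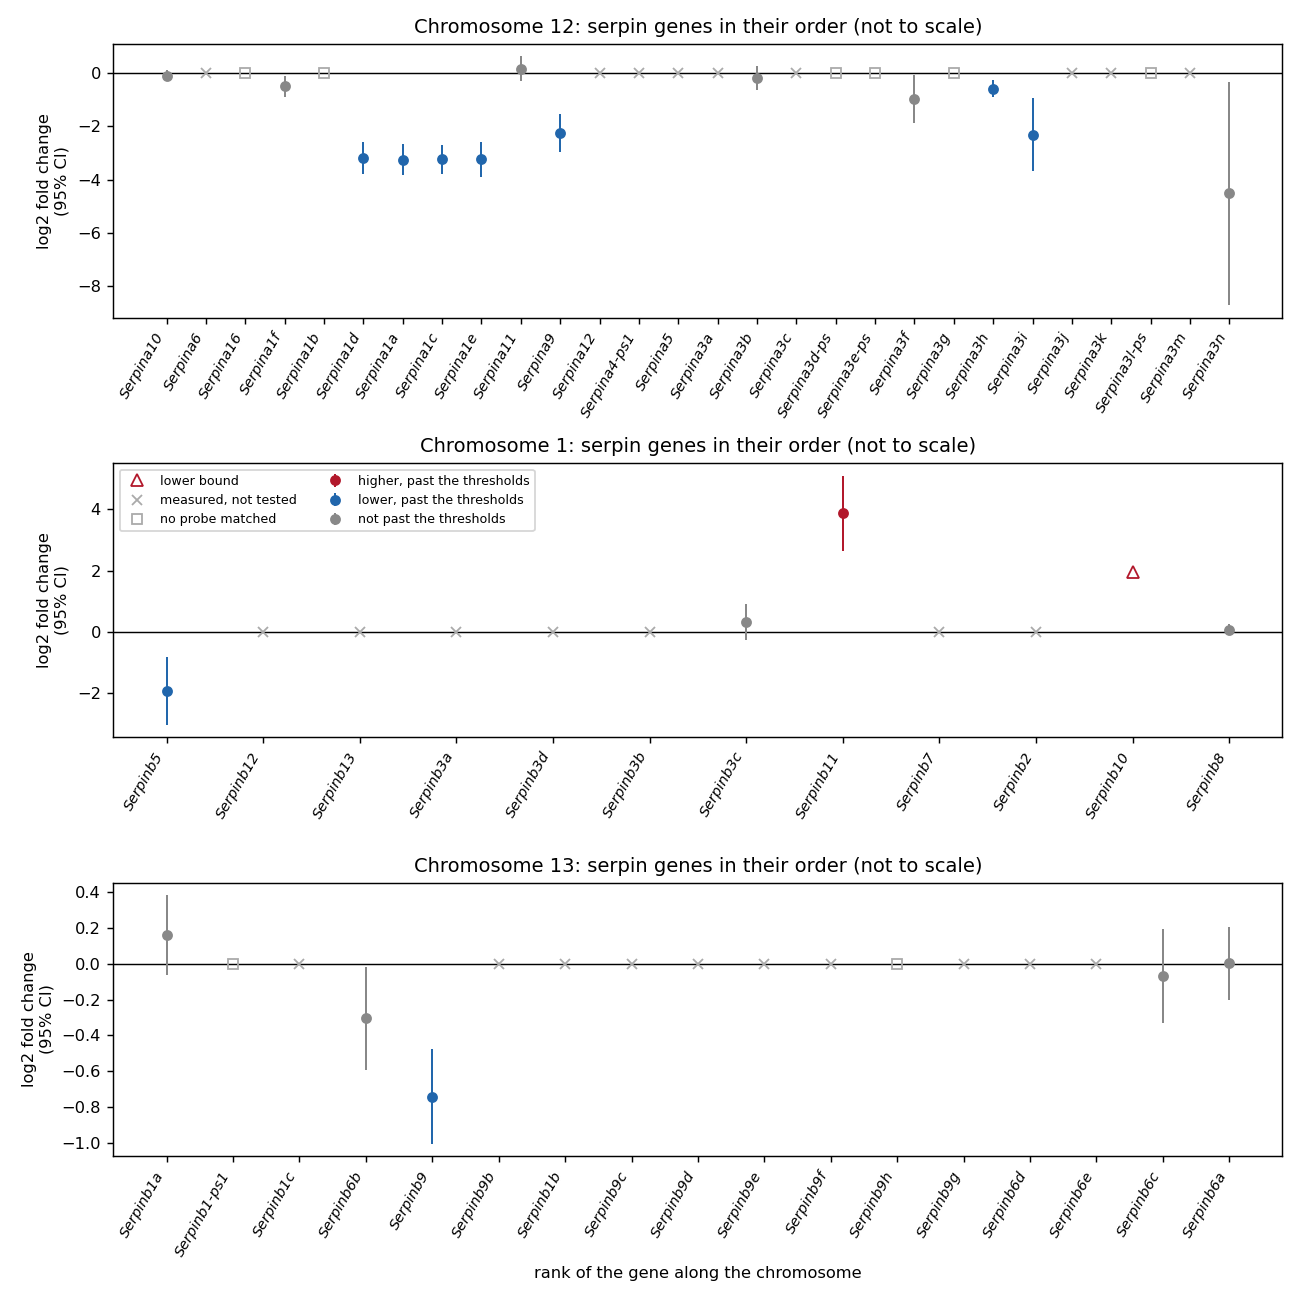
Log2 fold change (Sox17ed/ed minus Sox17f/f, 95% confidence interval) of the serpin genes of chromosomes 12, 1 and 13 in their order along the chromosome. Genes not tested or without a matched probe are placed at 0 and Serpinb10 at its lower bound. Serpine2 and Serpinc1 are not shown. On chromosome 12, Serpina1d, Serpina1a, Serpina1c and Serpina1e are adjacent and lie near -3.2, Serpina11 lies at 0.15 next to Serpina9 at -2.26, and on chromosome 1 Serpinb11 and Serpinb10 stand apart from Serpinb8 at 0.07.

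The serpin genes of chromosome 12 are 28 in number, all of clade A, of which 13 were tested, 7 were lower and 0 higher. The 12 of chromosome 1 shown are all of clade B and include 5 tested, 1 lower and 2 higher. Serpine2, which was lower, and Serpinc1, which was not tested, were left out of the rows shown. The 17 of chromosome 13 include 5 tested, with Serpinb9 lower. Of all genes tested, 6.47% were lower and 6.04% higher. Members that did not pass lay among those that did: Serpina11, between Serpina1e and Serpina9, read 0.15 ± 0.19 on the log2 fold change scale, and Serpinb3c, beside Serpinb11, 0.32 ± 0.24. Adjacent copies may share probes as well as position, so their values are not independent.

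Clade E includes inhibitors of plasminogen activators, the enzymes that turn plasminogen into the clot-dissolving protease plasmin. Serpine2, protease nexin 1, which inhibits thrombin and plasminogen activators at cell surfaces, read 8.72, 9.15 and 8.96 in Sox17f/f and 7.80, 7.98 and 8.04 in Sox17ed/ed uteri. It was 2.01-fold lower, a log2 fold change of -1.01 ± 0.13 (limma adjusted p = 0.0036), with no overlap between genotypes.

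Clade G consists of Serping1, the C1 inhibitor, which blocks the first proteases of the classical complement pathway and of the contact system. Its normalized log2 signals were 14.40, 14.43 and 14.52 in Sox17f/f and 13.86, 13.93 and 13.93 in Sox17ed/ed uteri. The fall of 1.46-fold was small and even, with a log2 fold change of -0.55 ± 0.06 (SE, n = 3 and 3, limma adjusted p = 0.0027), and a second probe gave -0.59.

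In clades F, H and I, the 3 members tested did not pass the thresholds. Serpinh1, the collagen chaperone HSP47 of the endoplasmic reticulum, read -0.04 ± 0.08 on the log2 fold change scale, with a 95% confidence interval of -0.23 to 0.15. Serpinf1, pigment epithelium-derived factor, read 0.15 ± 0.07 and did not reach the fold threshold, although its 3 Sox17ed/ed arrays lay, by a narrow margin, above the 3 controls. Serpini1, neuroserpin, an inhibitor of tissue plasminogen activator, read -0.15 ± 0.15, and its second probe -0.52. Across the 15 serpins that did not pass, 7 had a 95% confidence interval that lay wholly inside 1.4-fold lower to 1.4-fold higher. For the other 8, a change of that size was inside the interval.

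Of the 40 remaining genes, 31 were measured but not tested and 9 had no matched probe. Among the 31, 22 were above background on no array, including Serpinc1 (antithrombin), Serpind1 (heparin cofactor II) and Serpinf2 (alpha-2-antiplasmin), the thrombin and plasmin inhibitors of plasma. The others of the 22 were Serpina3a, Serpina3c, Serpina3j, Serpina3k, Serpina4-ps1, Serpina7, Serpina12, Serpinb1b, Serpinb2, Serpinb3a, Serpinb3b, Serpinb3d, Serpinb6d, Serpinb9d, Serpinb9f, Serpinb9g, Serpinb12, Serpinb13 and Serpini2. Serpina5, the protein C inhibitor, was above background on 2 of 3 Sox17f/f arrays and 0 of 3 Sox17ed/ed arrays, and Serpinb1c on 0 and 2. The lowest normalized log2 signal above background differed by genotype, 3.19 to 3.89 on Sox17f/f and 4.13 to 4.34 on Sox17ed/ed arrays. A dim signal could thus count on a Sox17f/f array and not on a Sox17ed/ed array, which limits comparisons of such counts. Serpina3m, Serpina6, Serpinb6e, Serpinb9b, Serpinb9c and Serpinb9e were above background on at most 1 array of a genotype. The genes without a matched probe were Serpina16, Serpina1b, Serpina3d-ps, Serpina3e-ps, Serpina3g, Serpina3l-ps, Serpinb1-ps1, Serpinb9h and Serpine3. Among members with a pair of probes above background on at least 3 arrays, both probes of all 8 gave the same sign, with the widest gap, 0.37 on the log2 scale, at Serpini1.

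Proteases and partners of these serpins were taken from fixed lists. The coagulation and plasminogen list held 30 genes, of which 22 were tested, 8 were lower, 0 were higher and 14 did not pass, with a median log2 fold change of -0.19. Those past the thresholds were 36.4% of the genes tested in the list, beside 12.5% of all genes. The largest falls were those of F13a1, the clot cross-linking factor XIII A chain (-1.13), Thbs1, thrombospondin 1 (-1.05), F3, tissue factor (-0.95), and Vwf, von Willebrand factor (-0.84). Plau, the urokinase plasminogen activator that Serpine2 inhibits, also fell, by 0.60 on the log2 scale, whereas the other activator, Plat, read 0.23 ± 0.07 and did not pass. With a fold threshold of 2, 2 of the 8 remained. Of 10 endothelial markers tested, 1 was higher and 1 lower (20%, beside 12.5% of all genes past the thresholds). They had summed log2 signals of 16.06 to 16.10 in Sox17f/f and 15.69 to 15.82 in Sox17ed/ed uteri. Their part in the falls of this list and of Serpine2 was not tested.

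The leukocyte and mast cell protease list, targets of clade B and of Serpina1 and Serpina3, had 14 of its 19 genes tested, of which 3 were higher (21.4%, beside 12.5% of all genes past the thresholds), 0 lower and 11 did not pass, with a median log2 fold change of 0.87. Gzmb, granzyme B, the target of Serpinb9, read 9.90, 10.81 and 10.32 in Sox17f/f and 11.68, 12.15 and 11.30 in Sox17ed/ed uteri, a log2 fold change of 1.37 ± 0.29 (limma adjusted p = 0.024). Gzmc rose by 1.27 ± 0.33 and Gzmm by 1.05 ± 0.10. The count of this list ranged from 1 to 5 when single arrays were left out: it was 1 without Sox17ed/ed replicate 1, and 5 without Sox17f/f replicate 2 or without Sox17f/f replicate 3. Of 10 natural killer and T cell markers, 2, Nkg7 and Prf1, were higher (20%, beside 6.04% of all genes). The summed log2 signal of the 10 was 12.48 to 12.63 in Sox17f/f and 12.71 to 13.11 in Sox17ed/ed uteri. Its part in the granzyme and Serpinb9 values was not tested.

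Of 43 epithelial and tissue serine proteases, 32 were tested, 7 were higher, 6 lower and 19 did not pass, with a median log2 fold change of 0.03 and 40.6% past the thresholds, beside 12.5% of all genes. Prss29 and Prss28, tryptase-like proteases secreted by uterine glands, fell most, Prss29 to below background on every Sox17ed/ed array and so at least 414.1-fold, and Prss28 by 7.02 on the log2 scale. Tmprss11a was at least 6.30-fold lower and Prss12 fell by 1.19. The largest rises were those of the membrane proteases Tmprss13 (2.71), Tmprss4 (1.54) and Hpn, hepsin (1.53), and of the kallikrein Klk1 (1.43).

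Complement genes, the targets of Serping1 and their partners, numbered 15, of which 14 were tested, 3 were higher, 1 was lower and 10 did not pass, with a median log2 fold change of -0.17 and 28.6% past the thresholds, beside 12.5% of all genes. Cfb (1.55), Cfi (1.21) and C2 (1.002) rose and C4b fell by 1.54. The C1 proteases that Serping1 inhibits did not pass: C1ra read -0.27 ± 0.07 and C1s1 -0.17 ± 0.07.

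Inhibitors of other families moved in both directions. Of 60 listed, 37 were tested, 10 were higher, 4 lower and 23 did not pass, with a median log2 fold change of 0.22 and 37.8% past the thresholds, beside 12.5% of all genes. Spink8, of the Kazal family, rose by 5.72 on the log2 scale, and Slpi, the secretory leukocyte protease inhibitor that shares neutrophil elastase as a target with Serpina1, rose by 1.99. Wfdc16 was at least 12.4-fold and Wfdc8 at least 3.47-fold higher. Spink1, a Kazal inhibitor of trypsin made by uterine glands, fell by 10.28, being above background on 2 of 3 Sox17ed/ed arrays, and Wfdc3 fell by 2.64, Itih3 by 2.43 and Wfdc17 by 1.01. For comparison, the serpins had 2 higher and 11 lower of 28, a difference between families that was not tested.

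**Figure D4:**
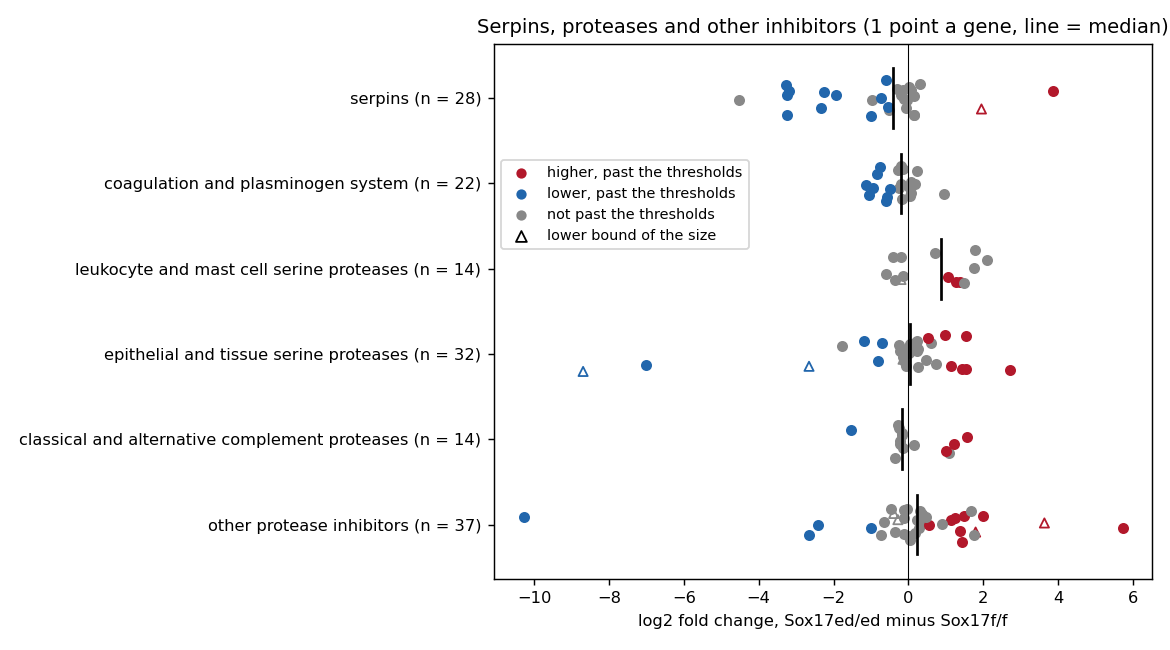
Log2 fold change (Sox17ed/ed minus Sox17f/f) of the tested serpins and of the tested genes of 5 lists, 1 point a gene, with the vertical line at the median and open triangles at lower bounds for genes above background in 1 genotype only. The serpin median lies at -0.41, the coagulation list at -0.19 with its genes past the thresholds all on the lower side, and the leukocyte protease list at 0.87.

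Promoter entries were found for 54 of the serpin genes, giving 63 promoters, and for 10 of the 13 that passed the thresholds, not for Serpina3h, Serpina9 or Serping1. The 250 bases upstream were searched on both strands for 4 short motifs, spelled here in letters where N is any base. The SOX motif ACAATNG was found in 3.17% of the serpin promoters, those of Serpinb7 and Serpini2, and in 6.91% of all 32851 promoters. The steroid receptor spacing ACANNNTGT was found in 17.5% of the serpin promoters, 11 promoters of 10 genes, beside 5.84% of all. The genes were Serpina1a, Serpina3c, Serpina3f, Serpina3i, Serpina3n, Serpinb8, Serpinb9d, Serpinb10, Serpinb12 and Serpini2, several of which are copies that share this sequence by descent and are not separate cases. The palindromic oestrogen response element, found in 0.0639% of all promoters, and the FOXA motif TGTTTAC, found in 3.17% of all, were in 0 serpin promoters. These matches describe letters within the window and were not tested against the expression values.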

How the data were processed

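RNA of whole uterine tissue, 3 biological samples per genotype, was labelled with Cy3 and hybridised to 6 Agilent arrays of 1 colour, and the samples were grouped by the genotype in their titles. Per array, the authors deposited a scanner file from Agilent Feature Extraction (11.0.1.1 in the file headers, 9.1 in the submitters' processing notes). The deposited intensity used here was the processed signal, which the software had corrected for background. A deposited table of processed values had 99.86% of its intensity values within 1% of the mean processed signal of the probe's spots, with column medians of 34.9 to 44.9, on a linear scale without centring, and served as an alternative. Subtracting the background makes dim values uncertain on a log scale, so bounds are given where a genotype had no array above background.

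Control spots and the 169 to 302 spots per array marked as outliers were left out, and no spot was saturated. Log2 signals were quantile normalized, as in the study's methods, and replicate spots averaged. A probe was kept if its signal was well above background on 3 or more of the 6 arrays, and the brightest probe stood for a gene. Accessions tied 26582 of the 55681 probes to 20145 genes of the RefSeq table (GRCm38.p6), while 16194 carried a genome position and 12905 an accession that was not matched. The array design is annotated on mm9, so the table gave names and gene order only. Genotypes were compared in R 4.3.3 with lmFit and eBayes of limma 3.58.1, and p-values of the 14846 genes tested were adjusted by Benjamini-Hochberg. The call rule of the study was used: unadjusted p under 0.01 and a fold change of at least 1.4. ± is the SE of the limma fit. An exact permutation test of 3 against 3 arrays cannot go below 0.1 (two-sided), and the number of arrays limits the precision. The p-values set the difference between genotypes against the spread between samples of a genotype, which eBayes moderates with that of all genes. They cannot separate the genotype from the line of the slide. On simulated data for this comparison, with 14846 genes, 196 of 200 changed genes (98%) were recovered, and 73 unchanged genes also passed the thresholds. That share was not split by size of change, and recovery near the fold threshold of 1.4 was not tested separately.

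Every serpin past the thresholds is named with its value on each array, the others by clade, and up to 4 genes per list in each direction. The members and lists were chosen with earlier results of these data known. Alternatives were another scaling, normexp background correction, other filters, probe rules, variance models and call rules, the deposited values, the replicate number as a block, and leaving out each array. Python 3.11.15 with pandas 2.3.3, Biopython 1.88 and matplotlib 3.10.9 made tables, alignments and figures. Protein sequences were not used here. Of the genes the symbol rule takes, 1 is not reported here: it stayed in the fit over all genes and was left out of the serpin counts, medians, named genes and figures.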

Additional observations from a re-analysis of the deposited data

How the results depend on the processing

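Over 18 alternatives, the 13 serpins past the thresholds gave 231 values, of which 211 kept direction and call, 20 kept direction and lost the call and 0 reversed. Of the 13, 6 kept the call under all 18, and Serpinb10 and Serpinb11 under the 17 that tested them. The lost calls were those of Serpina3h, Serpina3i and Serpinb5, and, with a fold threshold of 2, of Serpina3h, Serpinb9 and Serping1. Without 1 array the lower serpins numbered 8 to 12 and the higher ones 2. Requiring signal above background on all 6 arrays left 0 higher serpins, since neither gene meets it, and no filter on dim probes gave 3, with Serpinb7 added. All genes past the thresholds, 1857, became 817 with a fold threshold of 2 and 2808 with adjusted limma p under 0.05 and no fold threshold. The coagulation list, 8, became 2 with a fold threshold of 2. The leukocyte protease list, 3, became 6 with normexp, 1 with an ordinary linear model and 1 to 5 without 1 array; the cause was not tested. Per gene, the log2 fold change shifted by a median over all genes of -0.00348 with the 75th percentile and of -0.012 with normexp.

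Some genes that did not pass turned sign near 0. Serpinb6a read -0.0619 with the 75th percentile and -0.0175 with deposited values. Without 1 array, Serpinb6a ranged from -0.0528 to 0.0494, Serpinb6c from -0.129 to 0.0251, Serpina3b from -0.326 to 0.0161 and Serpinh1 from -0.0985 to 0.00565. Serpina10 read 2.02 in the deposited values, which keep its outlier spot.

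Replicate numbers are shared between the genotypes, but same-numbered samples did not deviate together (correlations of 0.06, -0.11 and 0.00). With the replicate block, 2 serpins were higher and 10 lower, with the call of Serpina3i lost, and the leukocyte protease list counted 5. Normexp was run on the median signal. Dim probes limit most untested serpins: 22 were above background on no array.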
